A study of Sus scrofa with 42 samples.

Results

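Methylation of lysine 9 of histone H3 (H3K9) marks silenced chromatin and heterochromatin. It is written by SET domain methyltransferases and removed by Jumonji domain demethylases. SUV39H1 and SUV39H2 make the trimethyl mark of constitutive heterochromatin, SETDB1 makes it at transposons and at genes bound by KRAB zinc finger proteins, EHMT1 and EHMT2 (GLP and G9a) act together on the mono- and dimethyl marks, KDM4A, KDM4B and KDM4C remove the trimethyl mark, and KDM3A removes the lower methyl states. In mammalian zygotes the maternal chromatin carries more of these marks than the paternal chromatin, and the enzymes of the first cleavages come mainly from RNA and protein stored in the oocyte. The genes were chosen by symbol from a list of 10, and 9 of them were found among the 15351 genes measured in pig embryos, namely 5 methyltransferases and 4 demethylases. EHMT1 was not analysed here.

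The embryos came from pig oocytes matured in culture. They were either fertilized in vitro (IVF), which gives embryos with maternal and paternal genomes, or activated by electric pulses and held in 6-dimethylaminopurine and cytochalasin B (parthenogenetic activation, PA), which gives embryos without a sperm genome. Zygotes were taken at 19 h (1-cell), and separated blastomeres at 27 h (2-cell), 48 h (4-cell) and 72 h (8-cell). There were 42 cells of 20 embryos. In each method 3 embryos stood for the 1-cell stage (3 cells), 3 for the 2-cell stage (6 cells), 3 for the 4-cell stage (9 cells) and 1 for the 8-cell stage (3 cells). The ovaries came from slaughtered gilts, young sows before their first litter, and the sources used here name no breed or sire. A cell is named by method, stage, embryo and blastomere, so that IVF 4-cell-3-2 is blastomere 2 of embryo 3.

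Levels are FPKM, fragments scaled to gene length and to the mapped reads of the library, so genes can be compared by level. Reads on nuclear genes, recovered from the smallest steps of the FPKM values and taking a step as 1 read, came to 4632551 to 15622205 per cell with a median of 10637830. The share of FPKM on the 13 mitochondrial mRNAs moved with stage, from 10.7% ± 5.89 (SD, n = 3 embryos) in IVF 1-cell embryos to 38.6% in the IVF 8-cell embryo, and from 10.8% ± 0.563 to 41.0% in PA. The number of genes above 0 moved the other way, from a mean of 8881 to 5790 per cell in IVF and from 8192 to 4871 in PA. The part of these shifts in the results was not tested.

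Cell identity was checked on fixed markers. Of 12 oocyte and early embryo markers, 9 were in the table and all 9 reached 1 FPKM in some cell. The most abundant of them, BTG4, an adaptor of maternal mRNA deadenylation, had a median of 506.2 FPKM over cells (1.10 to 1364). Their summed level had a median of 1105 FPKM in IVF 1-cell, 1495 in IVF 2-cell, 701.3 in IVF 4-cell and 24.4 in IVF 8-cell cells, and of 1085, 1107, 789.6 and 79.6 FPKM in PA. Of 12 cumulus and granulosa markers, 4 were in the table. The most abundant, STAR, had a mean of 4.90 FPKM, reached 1 FPKM in 20 cells and had its highest value, 29.95, in PA 4-cell-3-1. HAS2 reached 1 FPKM in 4 cells (at most 32.24, in PA 4-cell-2-4), CYP19A1 in 3 (at most 6.311, in IVF 4-cell-3-3) and TNFAIP6 in 0 (at most 0.214). The part of other cells' RNA in the results was not tested. Of 6 sperm markers only AKAP4 was in the table, and it reached 1 FPKM in 2 cells. Its highest value, 9.021, was in PA 4-cell-2-2, from an embryo made without sperm. Another feature of the samples bears on the PA 2-cell and PA 4-cell values. Blastomeres PA 4-cell-2-1 and PA 2-cell-2-1 had nearly the same values over all genes (r = 0.9989 of log2 values), as did PA 4-cell-1-4 and PA 2-cell-1-2 (r = 0.9988), whereas the next most alike pair, IVF 1-cell-2 and IVF 1-cell-3, had r = 0.9307. The main PA 4-cell values are also given without these PA 4-cell blastomeres, which leaves 1 blastomere in embryo 1 and 3 in embryo 2. In other measures both PA 4-cell cells were like the 2-cell group. Mitochondrial mRNAs took 11.5% of FPKM in PA 4-cell-2-1 and 15.6% in PA 4-cell-1-4, beside 11.2% to 15.2% in the other 4 PA 2-cell blastomeres and 17.5% to 54.0% in the other 7 PA 4-cell blastomeres. They had 6932 and 6728 genes above 0, beside 6104 to 6793 and 5077 to 5920. Their median-ratio scaling factors were 2.19 and 2.68, beside 1.89 to 2.23 and 0.0389 to 0.709. Both cells thus stood apart from the other PA 4-cell blastomeres in each of the 3 measures. Against IVF 4-cell blastomeres only the mitochondrial share did (24.6% to 41.8% there), as IVF 4-cell-1-2 had 7071 genes above 0 and a factor of 2.72. Both PA 4-cell cells are called repeated here, but they stay in the PA 4-cell group that the labels give them unless stated. Where the PA 2-cell cells were left out in their place, which leaves 1 blastomere each in PA 2-cell embryos 1 and 2, the text says so.

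The 9 genes fell into 3 ranges of level. SETDB1, SUV39H2 and KDM3A had means of 45.6, 34.6 and 17.7 FPKM over the 8 group means, and each was above 0 in all 42 cells. SETDB2 and KDM4A had means of 1.84 and 1.501 FPKM, which rested on few cells, and EHMT2 and KDM4C of 0.346 and 0.320 FPKM. SUV39H1 and KDM4B were close to absent from the table at 0.0410 and 0.00273 FPKM. In reads recovered over all cells, SETDB1 had 468552, SUV39H2 171500 and KDM3A 122377, against 275 for SUV39H1 and 13 for KDM4B. Neighbours in this order within each range changed places between groups, as SUV39H2 was above SETDB1 in all 3 IVF 2-cell embryos and below it in all 3 PA 4-cell embryos. The ranges are those of the means over groups, and genes of different ranges also crossed. In the IVF 8-cell embryo KDM4A (8.88 FPKM) lay above SUV39H2 (0.117).

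**Figure D1:**
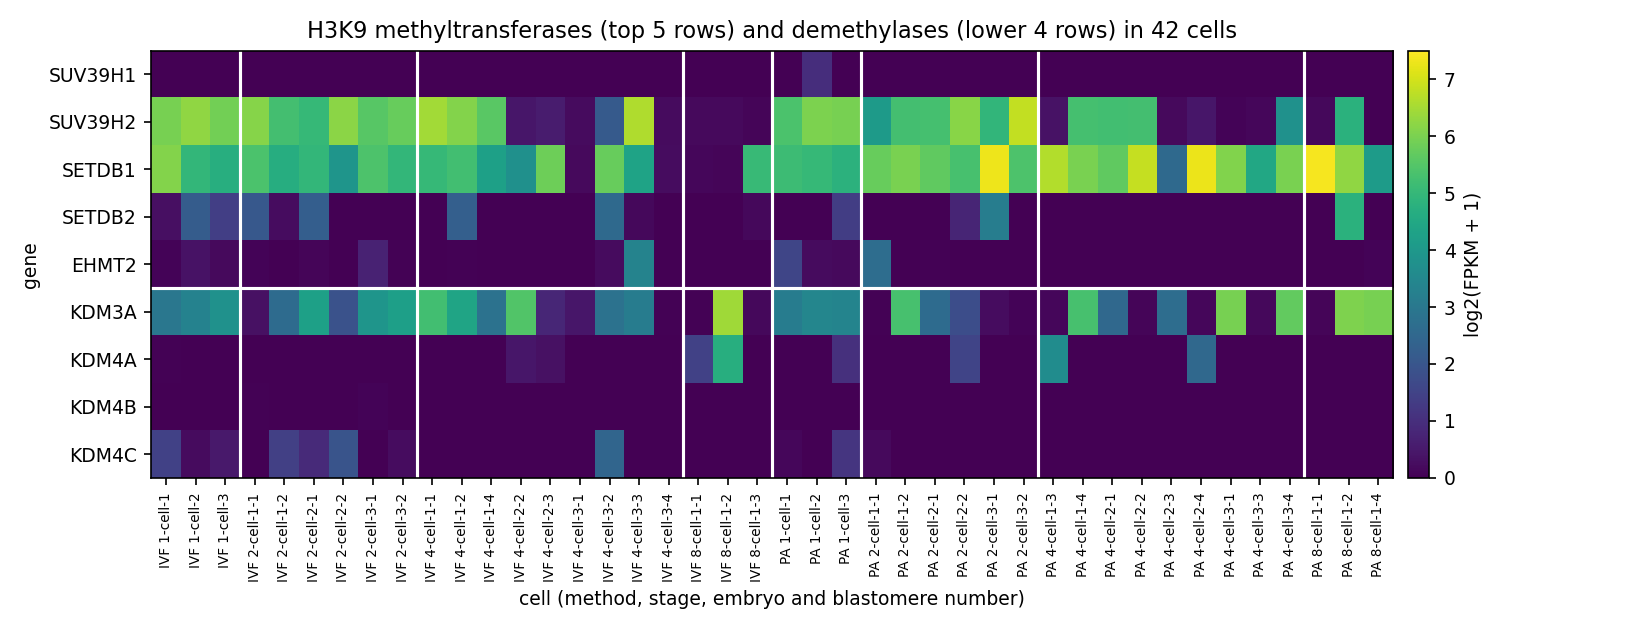
Level of the 9 genes (rows, methyltransferases above the white line and demethylases below it) in each of 42 cells (columns, groups parted by white lines), as log2(FPKM + 1) in colour. SUV39H2, SETDB1 and KDM3A are filled in most columns, SETDB2, EHMT2, KDM4A and KDM4C in scattered cells, and SUV39H1 and KDM4B in almost none.

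SUV39H2 was high in 1-cell and 2-cell embryos and low in most 4-cell and 8-cell blastomeres. The gene lies at chr10:46874608-46900082 on the minus strand of Sscrofa11.1, and its RefSeq model has 6 exons and 410 residues. IVF 1-cell embryos held 61.0, 75.4 and 59.0 FPKM (mean 65.1 ± 8.94, SD, n = 3), and IVF 2-cell embryos 53.5, 52.4 and 49.7 (51.8 ± 1.93). IVF 4-cell embryos spread from 67.1 in embryo 1 through 24.8 in embryo 3 to 0.430 in embryo 2, and the IVF 8-cell embryo held 0.117 FPKM in the mean of 0.148, 0.141 and 0.0631. All IVF 1-cell and 2-cell embryos were high and the 8-cell embryo was near 0, while the 4-cell embryos spread from one level to the other.

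In PA the SUV39H2 level of 1-cell embryos was 40.9, 63.6 and 61.9 FPKM (55.5 ± 12.6, SD, n = 3), and that of 2-cell embryos 26.5, 54.6 and 69.9 (50.3 ± 22.0). PA 4-cell embryos held 19.4, 18.7 and 4.36 FPKM (14.1 ± 8.46), or 0.276, 12.7 and 4.36 (mean 5.78) without the repeated blastomeres. The PA 8-cell embryo held 8.995 FPKM, almost all of it from blastomere 1-2 at 26.9, as the others were at 0.113 and 0.0187. The PA 4-cell embryos lay below every PA 1-cell and 2-cell embryo, but PA 2-cell embryo 1 held 15.94 FPKM without its nearly identical cell, below PA 4-cell embryos 1 and 2.

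Tests were run with limma on log2(embryo mean FPKM + 1) over 8116 genes, with the embryo as the replicate, and a gene was called at an adjusted p below 0.05 and a fold of at least 2. The 8-cell groups hold 1 embryo each, which was assumed to vary as the other groups did. From the 1-cell to the 8-cell stage in IVF, SUV39H2 fell by 5.88 on the log2 scale (SE 1.36, limma adjusted p = 0.00696). It was the 1 gene of the 7 tested members called lower in this comparison, in which 14.3% of all genes were called and 8.23% were called lower. The same comparison in PA gave -2.47 (SE 1.36, 95% interval -5.32 to 0.38) and did not pass (limma adjusted p = 0.263). Of its 16 alternatives 2 made the PA call, the mean of log2 values and the fit without the other groups. The largest fall among the alternatives was -4.13. Under median-ratio scaling of cells the IVF change was -3.79 and just missed the threshold (limma adjusted p = 0.0604), and the PA change turned to 1.67 (limma adjusted p = 0.519). From the 2-cell to the 4-cell stage SUV39H2 had a log2 change of -1.92 over both methods (SE 0.681, 95% interval -3.35 to -0.50), which missed the threshold (limma adjusted p = 0.113). The estimates within IVF and PA were -1.96 and -1.89 (limma adjusted p = 0.293 and 0.504). The change over both methods was called without the repeated PA blastomeres (-2.68, limma adjusted p = 0.0259) and without IVF 4-cell embryo 1 (-2.50, limma adjusted p = 0.0145). Over its 25 alternatives it ran from -2.91 to -0.55 (limma adjusted p = 0.00463 to 0.656), and 4 of them made the call. The smallest change was under median-ratio scaling, where the group means of SUV39H2 were 16.65 FPKM at the 2-cell and 21.47 at the 4-cell stage in IVF, and 22.76 and 19.7 in PA. Within PA the change without the repeated blastomeres was -3.39 (limma adjusted p = 0.0566). From the 1-cell to the 4-cell stage in PA the SUV39H2 change was -2.10 (limma adjusted p = 0.291), and over 19 alternatives it ran from -3.61, called without the repeated blastomeres (limma adjusted p = 0.0341), to -0.16 under median-ratio scaling (limma adjusted p = 0.982).

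**Figure D2:**
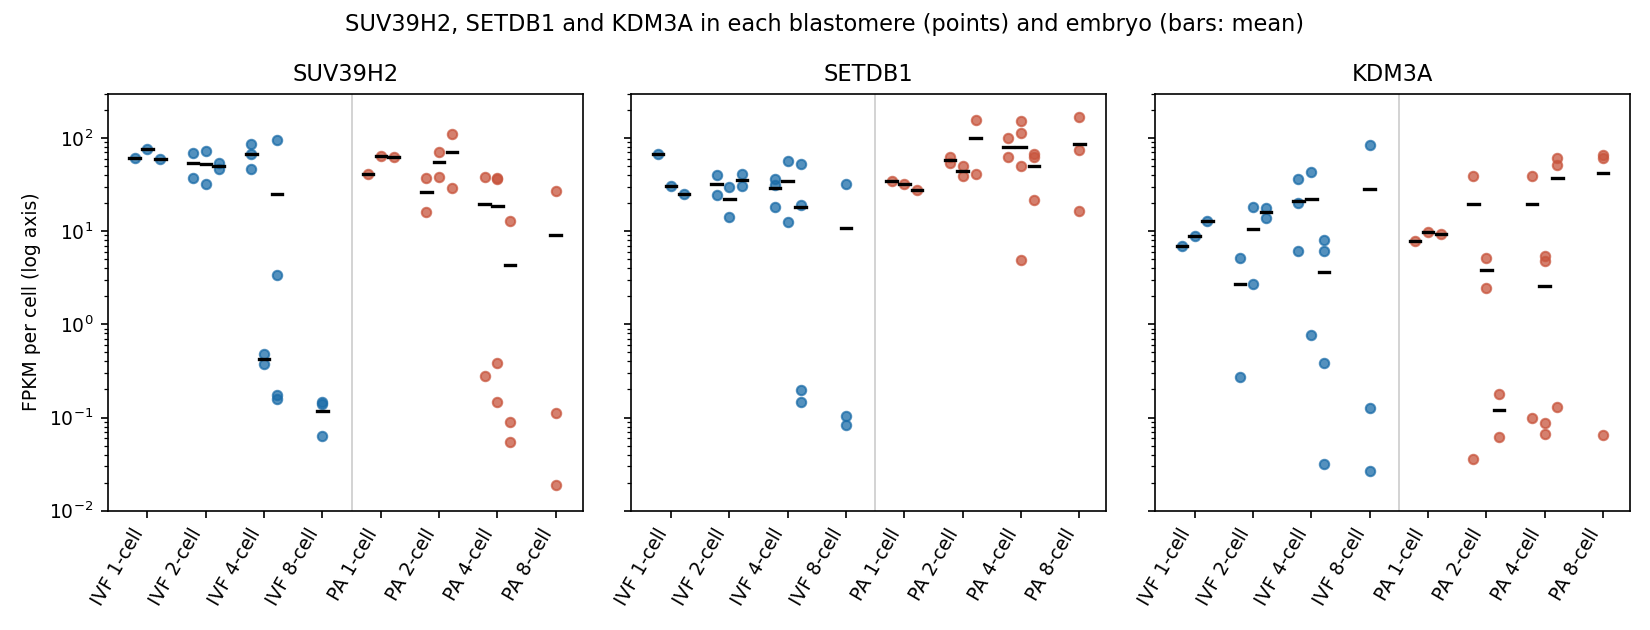
FPKM (log axis) of SUV39H2, SETDB1 and KDM3A in every cell (points, each embryo in its own column; IVF blue, PA red) with the mean of each embryo as a black bar. SUV39H2 points lie between 15.9 and 110.5 in all 1- and 2-cell cells and part into high and low sets at the 4-cell stage, SETDB1 stays above 10 in most cells, and the KDM3A spread within an embryo runs from narrow (13.9 and 17.8 in IVF 2-cell embryo 3) to wide (0.0269 to 84.8 in the IVF 8-cell embryo).

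Within 4-cell embryos SUV39H2 was present in some blastomeres and nearly gone from others. Of the 18 1-cell and 2-cell cells, 18 held at least 10 FPKM (15.9 to 110.5), against 8 of 18 4-cell blastomeres and 1 of 6 8-cell blastomeres. Among 4-cell blastomeres 8 lay between 12.9 and 95.5 FPKM, 1 at 3.36 and 9 below 0.5. In IVF 4-cell embryo 1 all 3 blastomeres were high (86.7, 67.8 and 46.8 FPKM), in embryo 2 both were low (0.379 and 0.480), and embryo 3 held 95.5, 3.36, 0.176 and 0.158. Each PA 4-cell embryo held high and low sisters, although the high blastomere of embryo 1 (38.4 FPKM) and a high blastomere of embryo 2 (36.5) are the repeated cells. The blastomeres with at least 10 FPKM of SUV39H2 also held more BTG4 (median 497.7 FPKM, 101.3 to 803.3, n = 8) than those below 10 (median 74.2, 2.03 to 486.9, n = 10), and overlapped them. Another oocyte marker, the egg coat gene ZP4, was the other way, with a median of 137.6 FPKM in the former and 245.1 in the latter, and the growth factor gene BMP15 had medians of 165.4 and 102.5. The 8 blastomeres include both repeated cells, and these medians were not redone without them. Sister blastomeres are not independent, so the medians are descriptions. The correlation of log2 values of SUV39H2 and BTG4 over the 18 blastomeres, which share embryos and stage, was r = 0.58 (0.528 over 16 without the repeated cells).

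SETDB1, at chr4:98256868-98293486 on the minus strand (22 exons, 1292 residues in RefSeq), was the most abundant of the genes and the one that stayed high in PA. IVF 1-cell embryos held 67.3, 30.2 and 25.0 FPKM (40.8 ± 23.1, SD, n = 3), IVF 2-cell embryos 32.3, 22.1 and 35.7 (30.04 ± 7.08), and IVF 4-cell embryos 28.8, 34.6 and 18.2 (27.2 ± 8.36). The IVF 8-cell embryo held 10.9 FPKM, from 32.4 in blastomere 1-3 and 0.104 and 0.0830 in the others. The IVF embryos of the first 3 stages overlapped, and the 8-cell embryo lay below all of them. From the 1-cell to the 8-cell stage in IVF the log2 change of SETDB1 was -1.68 (SE 0.754), which did not pass (limma adjusted p = 0.143). It was called with the mean of log2 values (-3.48, limma adjusted p = 0.00987) and turned to 1.84 under median-ratio scaling (limma adjusted p = 0.142).

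PA 1-cell embryos held 34.6, 31.8 and 27.4 FPKM of SETDB1 (31.2 ± 3.62, SD, n = 3). PA 2-cell embryos held 57.9, 44.7 and 99.1 (67.3 ± 28.4) and PA 4-cell embryos 80.6, 80.8 and 50.5 (70.7 ± 17.4, or 80.2 without the repeated blastomeres). The PA 8-cell embryo held 86.8 FPKM, from 169.3, 74.8 and 16.4. Every PA 2-cell and 4-cell embryo lay above every IVF embryo of the same stage. At each of these stages 2 of the 7 tested members had no overlap between the methods. The other was KDM4C at the 2-cell and EHMT2 at the 4-cell stage, both low genes that were higher in IVF. The share of all genes without overlap was not counted. For SETDB1 the log2 difference of IVF from PA was -1.36 at the 4-cell stage (SE 0.533, 95% interval -2.48 to -0.24) and -1.09 at the 2-cell stage (SE 0.533, -2.20 to 0.03), and neither passed (limma adjusted p = 0.242 and 0.903). Without the repeated blastomeres the 4-cell difference was -1.51 (limma adjusted p = 0.15). At the 2-cell stage the spread came mainly from PA 2-cell-3-1 at 156.8 FPKM, beside 39.2 to 62.5 in the other 5 blastomeres. None of the 7 tested members was called between IVF and PA at the 1-, 2- or 4-cell stage, where 0.0493%, 0.0% and 0.554% of all genes were called. As fitted, no SETDB1 step between neighbouring stages passed within IVF or PA. From the 1-cell to the 8-cell stage in PA the SETDB1 change was 1.45 (SE 0.754, limma adjusted p = 0.233), and it was called without the other groups in the fit (limma adjusted p = 0.0424).

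The direction for SETDB1 depended on how cells were scaled. The median-ratio factors, by which FPKM was divided, rested on the 1064 tested nuclear genes above 0 in every cell. They ran from 0.0389 in PA 4-cell-3-3 to 4.17 in IVF 1-cell-2. When cells were scaled by their median ratio over nuclear genes, the SETDB1 change from 2-cell to 4-cell over both methods turned from -0.02 (limma adjusted p = 0.984) to 2.12 (limma adjusted p = 0.0039), and the difference of IVF from PA at the 4-cell stage was called (-3.93, limma adjusted p = 0.00114). Within PA that scaling also made 3 SETDB1 calls, all higher, from 2-cell to 4-cell (3.34, limma adjusted p = 0.00189), from 1-cell to 4-cell (4.64, limma adjusted p = 0.000107) and from 1-cell to 8-cell (5.88, limma adjusted p = 5e-05). That scaling moved the median log2 change of all genes in the 2-cell to 4-cell comparison from -0.24 to 0.31. CERS2, a ceramide synthase gene, overlaps SETDB1 on the other strand (mean 16.1 FPKM, r = 0.392 over cells), and reads on shared bases cannot be told apart because no source used here gives the strandedness of the counting.

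The other methyltransferases were low. SETDB2, at chr11:18251218-18297826 on the minus strand and a relative of SETDB1, reached 1 FPKM in 9 of 42 cells and 10 FPKM in 1, blastomere 1-2 of the PA 8-cell embryo. That blastomere held 26.5 FPKM while its sisters were listed at 0. PA 4-cell embryos held 0.00281, 0.00392 and 0.00878 FPKM, and the PA 8-cell embryo 8.84. From the 4-cell to the 8-cell stage in PA, SETDB2 rose by 3.29 on the log2 scale (SE 0.996, limma adjusted p = 0.0409), and was the 1 tested member called, where 9.99% of all genes were called and 6.81% were called higher. The call rested on that blastomere and was lost when any PA 4-cell embryo was left out (limma adjusted p = 0.0618 to 0.0685). It held under 6 of 15 alternatives (limma adjusted p = 3.77e-06 to 0.363) and was also lost with a pseudocount of 0.1, with no filter, with nuclear genes rescaled, with the mean of log2 values, with blastomeres as samples and without the other groups in the fit. In IVF the SETDB2 level was 1.80 ± 1.64, 1.19 ± 1.03 and 0.845 ± 0.730 FPKM (SD, n = 3) at the 1-, 2- and 4-cell stage and 0.0442 at the 8-cell stage. PHF11 overlaps SETDB2 on the same strand (mean 18.5 FPKM, r = 0.144 over cells), so reads on shared bases cannot be assigned with certainty.

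EHMT2, at chr7:23978008-23992666 on the minus strand, reached 1 FPKM in 3 cells. These were IVF 4-cell-3-3 at 9.27, PA 2-cell-1-1 at 5.37 and PA 1-cell-1 at 1.96 FPKM, and in all other cells the level was at most 0.634. All 3 IVF 8-cell blastomeres were listed at 0, as were 8 of 9 PA 4-cell blastomeres. SLC44A4 overlaps EHMT2 on the same strand at a mean of 0.00950 FPKM (r = 0.55 over cells). SUV39H1, at chrX:42797159-42814003 on the plus strand, was above 0 in 3 cells, all of PA embryos, at 0.9746 FPKM in PA 1-cell-2, 0.0149 in PA 4-cell-3-1 and 0.00332 in PA 1-cell-1. SUV39H1 did not pass the filter of 1 FPKM in 3 cells and was not tested. SUV39H2 was above SUV39H1 in all 42 cells.

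KDM3A was the abundant demethylase, and its level differed widely between sister blastomeres in some embryos. At the 4-cell stage such gaps were common among genes of this level. The gene lies at chr3:58299723-58355000 on the minus strand (26 exons, 1323 residues in RefSeq). IVF 1-cell embryos held 6.89, 8.97 and 12.8 FPKM (9.56 ± 3.01, SD, n = 3), IVF 2-cell embryos 2.69, 10.5 and 15.9 (9.67 ± 6.62), IVF 4-cell embryos 20.9, 22.0 and 3.63 (15.5 ± 10.3), and the IVF 8-cell embryo 28.3. In PA the 1-cell embryos held 7.83, 9.89 and 9.36 FPKM (9.03 ± 1.07), the 2-cell embryos 19.6, 3.79 and 0.121 (7.85 ± 10.4, with embryo 1 at 0.0362 and embryo 2 at 2.44 without the nearly identical cells), the 4-cell embryos 19.5, 2.58 and 37.3 (19.8 ± 17.4, or 13.1 without the repeated blastomeres), and the 8-cell embryo 42.1. Each 8-cell embryo lay above every earlier embryo of its method, and no KDM3A comparison passed as fitted. The log2 change from the 1-cell to the 8-cell stage was 1.51 in IVF (95% interval -1.47 to 4.495, limma adjusted p = 0.505) and 2.11 in PA (-0.88 to 5.09, limma adjusted p = 0.376), intervals that reach from a loss to a large gain. The PA change was called under median-ratio scaling (5.32, limma adjusted p = 0.0145) and without the other groups in the fit (limma adjusted p = 0.0278).

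The 8-cell means of KDM3A came from part of the blastomeres. In IVF, blastomere 1-2 held 84.8 FPKM, the highest KDM3A level of all 42 cells, and its sisters 0.0269 and 0.126. In PA, blastomeres 1-2 and 1-4 held 65.3 and 60.9 FPKM and 1-1 held 0.0654. PA 2-cell embryo 1 held 39.2 FPKM in blastomere 1-2 and 0.0362 in 1-1, but blastomere 1-2 is one of the nearly identical cells, and PA 4-cell-1-4 held 38.97. Both blastomeres of PA 2-cell embryo 3 were low (0.1798 and 0.0613).

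KDM4A, at chr6:167596104-167642374 on the minus strand (22 exons, 1066 residues), reached 1 FPKM in 6 of 42 cells, and 10 FPKM in 1 blastomere each of the IVF 8-cell embryo and a PA 4-cell embryo. IVF embryos held 0.0141 ± 0.0150 FPKM at the 1-cell, 0.00166 ± 0.00147 at the 2-cell and 0.107 ± 0.179 at the 4-cell stage (SD, n = 3). The IVF 8-cell embryo held 8.88 FPKM, from 24.9, 1.72 and 0. From the 4-cell to the 8-cell stage in IVF, KDM4A rose by 3.17 on the log2 scale (SE 0.762, limma adjusted p = 0.0126), where 6.97% of all genes were called and 3.72% were called higher. This call was lost with a pseudocount of 0.1, with the mean of log2 values and when the other groups were left out of the fit. From the 1-cell stage it rose by 3.28 (SE 0.762, limma adjusted p = 0.00706), where 6.03% were called higher. KDM4A was the 1 tested member called higher in each.

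In PA the KDM4A level was higher at the 4-cell stage than at the 8-cell stage, without passing the test (log2 change -1.30, limma adjusted p = 0.382). PA 4-cell embryos held 5.80, 1.21 and 0.00285 FPKM, of which 11.6 was in blastomere 1-3 and 4.81 in blastomere 2-4. Without the repeated blastomeres, in which KDM4A was listed at 0, embryos 1 and 2 held 11.6 and 1.61 FPKM and the group mean went from 2.34 to 4.40. The PA 8-cell embryo held 0.00147. The step from 4-cell to 8-cell differed between the methods by 4.47 on the log2 scale (interaction, IVF minus PA, SE 1.08, limma adjusted p = 0.0297). KDM4A was the 1 tested member called in this interaction, in which 2.86% of all genes were called. Each side of it rests on 1 8-cell embryo, and the call was lost under 6 of 18 alternatives. The SETDB2 interaction was of the opposite sign, at -4.02 (SE 1.41), and did not pass (limma adjusted p = 0.149).

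The remaining demethylases were low. KDM4C, at chr1:215071419-215507712 on the minus strand, reached 1 FPKM in 5 cells, led by IVF 4-cell-3-2 at 4.46 and IVF 2-cell-2-2 at 2.83. Its group means went from 0.782 ± 0.840, 0.919 ± 0.872 and 0.376 ± 0.641 FPKM (SD, n = 3) in IVF 1-, 2- and 4-cell embryos to 0.00741 in the IVF 8-cell embryo, and from 0.444 ± 0.688 in PA 1-cell embryos to 0.00591 in the PA 8-cell embryo. No KDM4C comparison passed. KDM4B, at chr2:73746494-73889865 on the minus strand, was above 0 in 5 cells, at most 0.0524 FPKM in IVF 2-cell-3-1, and was not tested.

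**Figure D3:**
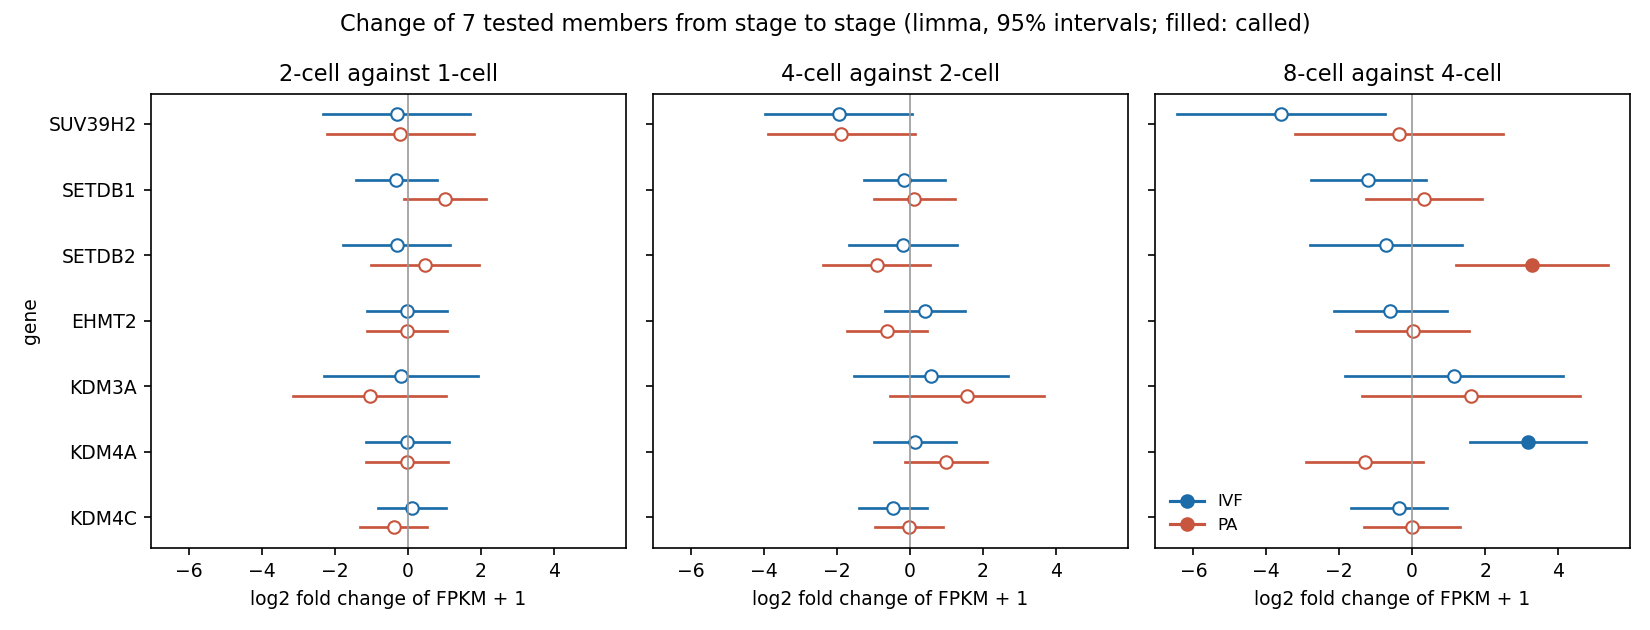
Log2 fold change of embryo mean FPKM + 1 (horizontal axis) with 95% intervals for the 7 tested genes (rows) between neighbouring stages, in IVF (blue) and PA (red). Filled points passed the test, which are KDM4A in IVF and SETDB2 in PA from 4-cell to 8-cell. All other points are open.

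Counted over the family, 5 of 133 gene and comparison pairs were called (3.76%), a share close to that of all genes over the same 19 comparisons (3.68%), and they lay in 3 genes (SUV39H2, KDM4A and SETDB2). All 5 calls were kept, and 0 were gained, when the nearly identical PA 2-cell cells were left out, and all 5 were kept without the repeated PA 4-cell blastomeres. No member was called from 1-cell to 2-cell in IVF or PA, where 0.0% and 0.0986% of all genes were called, from 2-cell to 4-cell (1.11% and 0.394%), from 1-cell to 4-cell (2.21% and 0.949%), or from 1-cell to 8-cell in PA (13.8%). With both methods in 1 contrast, no member was called from 1-cell to 2-cell (0.0% of all genes), from 2-cell to 4-cell (4.14%) or from 4-cell to 8-cell (12.6%), and none in the interactions of the first 2 steps (0.0% in each). At an unadjusted p under 0.05 limma gave 15 of the 133 pairs (11.3%), beside 13.9% over all genes. The median log2 change of the 7 genes was -0.59 from 4-cell to 8-cell in IVF and 0.02 in PA, beside -0.38 and -0.15 for all genes tested. The comparisons that end at the 8-cell stage share the 8-cell embryo of each method and are not independent.

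The 8-cell embryos of the 2 methods are set side by side as values, without a test. By the summed FPKM of Y chromosome genes, the study called the IVF 8-cell embryo male and all PA embryos female. Sex and method therefore cannot be told apart between the 8-cell embryos. KDM4A was at 8.88 FPKM in IVF and 0.00147 in PA, SUV39H2 at 0.117 and 8.995, SETDB1 at 10.9 and 86.8, and SETDB2 at 0.0442 and 8.84. Of the 7 tested genes, 4 differed by at least 1 on the log2 scale of FPKM + 1, beside 38.7% of all genes. KDM3A differed less (28.3 and 42.1 FPKM, a log2 difference of -0.56).

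Summed over the genes, methyltransferases outweighed demethylases in every embryo but 1. The 5 methyltransferases together came to 107.9 ± 21.5, 83.2 ± 5.99 and 59.6 ± 33.0 FPKM (SD, n = 3) at the 1-, 2- and 4-cell stage and 11.02 at the 8-cell stage in IVF. The same sum was 88.3 ± 9.82, 120.0 ± 46.4 and 84.8 ± 25.9 FPKM and then 104.7 in PA, and 85.93 ± 26.98 at the PA 4-cell stage without the repeated blastomeres. The 4 demethylases came to 10.4 ± 2.53, 10.6 ± 6.40, 16.0 ± 9.75 and 37.2 FPKM in IVF and to 9.82 ± 1.84, 8.20 ± 10.2, 22.1 ± 17.0 and 42.1 FPKM in PA, with 17.5 ± 17.6 at the PA 4-cell stage without the repeated blastomeres. The PA 2-cell demethylase sum rests largely on blastomere 1-2, one of the nearly identical cells, with 39.2 FPKM of KDM3A. Without the nearly identical cells the PA 2-cell mean of KDM3A went from 7.85 to 0.866 FPKM. That of KDM4A went from 0.321 to 0.640 FPKM. The methyltransferase and demethylase sums depend on the scaling. Under median-ratio scaling the methyltransferase sum in IVF was 29.72, 26.88, 42.91 and 39.13 FPKM over the 4 stages. It was thus higher at the 8-cell than at the 1-cell stage. In PA it went from 32.05 at the 1-cell to 856.6 at the 8-cell stage. The factors by which FPKM was divided were 0.104, 0.138 and 1.89 in the PA 8-cell blastomeres, beside 2.57 to 2.88 in PA 1-cell embryos. The PA 8-cell sum thus rests largely on how 2 blastomeres were scaled. The demethylase sum under that scaling was 2.762, 3.557, 10.62 and 48.96 FPKM in IVF and 3.56, 3.194, 63.71 and 169.2 in PA. In FPKM as deposited, demethylases made 6.31% to 13.4% of the summed FPKM in the 6 1-cell embryos, 77.1% in the IVF 8-cell embryo and 28.7% in the PA 8-cell embryo. Under median-ratio scaling the 8-cell shares were 55.58% and 16.49%. Embryos between them spread widely, from 0.0710% in PA 2-cell embryo 3 to 40.5% in PA 4-cell embryo 3.

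**Figure D4:**
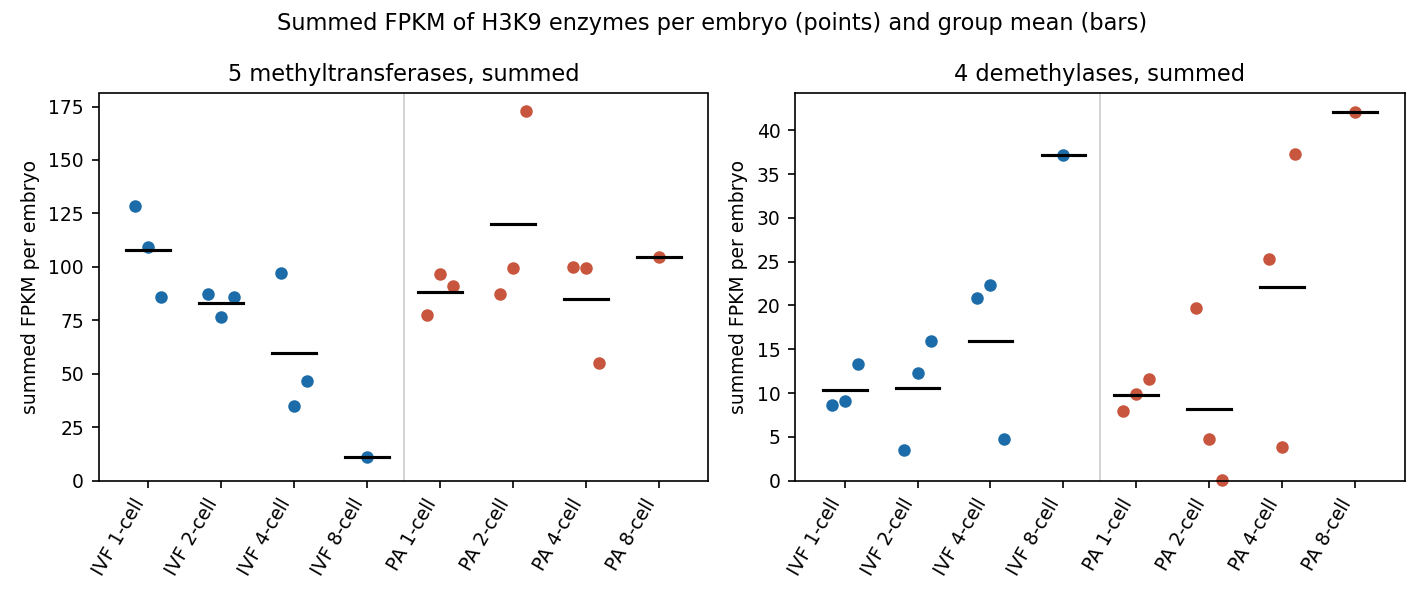
FPKM summed over 5 methyltransferases (left) and 4 demethylases (right) in each embryo (points; IVF blue, PA red), with the group mean as a bar. The IVF 8-cell embryo is the lowest of all for methyltransferases at 11.02, and each 8-cell embryo is the highest of its method for demethylases, at 37.2 and 42.1.

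The methyltransferase sum also changed in make-up. SUV39H2 gave 47.4% to 68.9% of it in IVF 1-cell embryos and 52.9% to 68.0% in PA 1-cell embryos. At the 4-cell stage its share was 7.94% to 19.4% in PA, below every PA 1-cell and 2-cell embryo (21.34% in PA 2-cell embryo 1 without its nearly identical cell), and spread from 1.22% to 69.1% in IVF. Without the repeated blastomeres the SUV39H2 share in PA 4-cell embryos 1, 2 and 3 was 0.278%, 12.3% and 7.93%. SETDB1 took most of the remainder, with 80.6% to 92.0% in PA 4-cell embryos (87.7% to 99.7% without the repeated blastomeres), 83.0% in the PA 8-cell and 98.5% in the IVF 8-cell embryo. KDM3A gave 68.1% to 99.99% of the demethylase sum over embryos, but 0.838% in PA 4-cell embryo 1 without its repeated blastomere, where KDM4A made up the sum, and 53.35% in embryo 2 without its own. Without the nearly identical PA 2-cell cells KDM3A gave 19.81% and 55.99% in PA 2-cell embryos 1 and 2.

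The gaps between sister blastomeres had larger medians for KDM3A than for SETDB1 at each stage. The difference between the highest and lowest sister of an embryo, as log2(FPKM + 1), had a median of 1.55 for KDM3A, 1.03 for SUV39H2 and 0.57 for SETDB1 at the 2-cell stage (6 embryos), beside 0.79 for the median of the 1969 genes with a mean of at least 10 FPKM. At the 4-cell stage (6 embryos) the medians were 3.88, 4.34 and 1.83, beside 3.5 for those genes, and at the 8-cell stage (2 embryos) 6.17, 2.44 and 4.12, beside 3.00. Of the 14 embryos with sisters, KDM3A had sisters on both sides of 10 FPKM in 8, SUV39H2 in 5, SETDB1 in 3, KDM4A in 2 and SETDB2 in 1. The share of all genes was not counted, and 10 FPKM lies near the KDM3A means of 1-cell embryos (9.56 in IVF, 9.03 in PA). The KDM3A count takes in PA 2-cell embryo 1 and PA 4-cell embryo 1. Their high sisters (39.2 and 38.97 FPKM) are a nearly identical pair. Without the repeated blastomeres the 4-cell medians (5 embryos) were 3.12 for KDM3A, 3.72 for SUV39H2 and 2.09 for SETDB1, beside 3.35, and the high sisters of KDM3A and SUV39H2 in PA 4-cell embryo 1 were no longer there. Without the nearly identical PA 2-cell cells the 2-cell medians (4 embryos) were 1.3 for KDM3A, 1.02 for SUV39H2 and 0.87 for SETDB1, beside 0.73. A gap of this kind is common among genes of this level at the 4-cell stage, and SETDB1 was below that background there. Without the repeated blastomeres KDM3A was also below it (3.12 beside 3.35).

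SETDB1, SUV39H2 and KDM3A did not rise and fall together over embryos, and the other members were not compared in this way. Over the 20 embryos the correlation of log2 values was 0.158 between SETDB1 and SUV39H2, -0.191 between SETDB1 and KDM3A and -0.524 between SUV39H2 and KDM3A, given as descriptions of embryos that share stages and methods. Among all genes tested, the patterns most like SUV39H2 over the 20 embryos were those of MAPRE1, a microtubule end protein (r = 0.937), S100PBP (r = 0.931) and HIKESHI, a nuclear carrier of HSP70 (r = 0.930). For SETDB1 they were NRAS, a small GTPase (r = 0.828), UBE4A, a ubiquitin ligase (r = 0.765), and GGPS1, which makes geranylgeranyl diphosphate (r = 0.745). For KDM3A they included G2E3 (r = 0.772) and CDC42BPA, a kinase bound by CDC42 (r = 0.744). The coefficients for SUV39H2 were higher than those for the other genes.

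Other genes of the pathway were taken from a list of 34, of which 29 were in the table and 24 were tested. PRDM16, KDM4D, KDM4E, CBX3 and DPPA3 were not analysed here. In each subgroup the highest mean over the groups belonged to PRDM2 among other methyltransferases (24.6 FPKM), KDM1A, which demethylates H3K4 and H3K9, among other demethylases (4.98), UHRF2 among readers (385.4), PPHLN1 among SETDB1 partners and the HUSH silencing complex (105.8), ZNF644 among EHMT partners (15.4) and CHAF1A, a subunit of the chromatin assembly factor, among histone chaperones (17.2). The rank of CHAF1A rested on IVF 4-cell embryo 2 at 150.3 FPKM, beside 5.25 and 1.43 in the other IVF 4-cell embryos. UHRF2, a reader of methylated H3K9 and of modified DNA, was above every methyltransferase and demethylase in the mean over groups, though in the PA 8-cell embryo it lay below SETDB1 (54.3 and 86.8 FPKM). TRIM28, which links SETDB1 to KRAB zinc finger proteins and was picked out after its values were seen, lay between 0.0772 and 6.85 FPKM in the group means.

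The calls among the 24 pathway genes lay in CBX1, UHRF2, PPHLN1 and ZNF644, and are given by comparison with the share of all genes. From 4-cell to 8-cell 1 rose in IVF (3.72% of all genes were called higher) and 1 fell in PA (3.18% lower), and with both methods in 1 contrast 1 rose (7.27%) and 2 fell (5.34%). From 1-cell to 8-cell 3 fell in IVF (8.23%) and 2 fell in PA (6.21%). No pathway gene was called in the other 14 comparisons.

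CBX1, which encodes the heterochromatin protein HP1 beta, was the riser. IVF 4-cell embryos held 0.0252, 0.0577 and 0.465 FPKM, and the 3 blastomeres of the IVF 8-cell embryo 72.1, 66.3 and 11.3 (mean 49.9). It rose by 5.45 on the log2 scale in IVF (SE 1.20, limma adjusted p = 0.00684), a call lost without the other groups in the fit (limma adjusted p = 0.299). The PA 8-cell embryo held 1.56 FPKM beside 5.19, 0.980 and 0.0937 in PA 4-cell embryos. The rise over both methods (2.78, SE 0.847, limma adjusted p = 0.0353) was lost with nuclear genes rescaled, with the replicate block, without the other groups in the fit and without PA 4-cell embryo 2 or 3.

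UHRF2 was called lower in both methods. Its level was 629.6 ± 115.1 FPKM (SD, n = 3) in IVF 1-cell and 436.4 ± 112.0 in PA 1-cell embryos, and 55.5 and 54.3 FPKM in the 8-cell embryos, in which 1 blastomere each held 162.8 and 157.8 FPKM and the others at most 4.07. It fell by 3.46 in IVF and by 2.95 in PA from 1-cell to 8-cell (SE 0.746 for each, limma adjusted p = 0.0042 and 0.013), and by 2.69 from 4-cell to 8-cell in PA (SE 0.746, limma adjusted p = 0.0251), a call lost without PA 4-cell embryo 1 and without the other groups in the fit. Under median-ratio scaling both calls of UHRF2 from 1-cell to 8-cell were lost, at 0.23 in IVF (limma adjusted p = 0.903) and -1.90 in PA (limma adjusted p = 0.0507).

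PPHLN1, which encodes the periphilin subunit of HUSH, fell by 4.31 on the log2 scale from 1-cell to 8-cell in IVF (SE 0.917, limma adjusted p = 0.00385), from 154.2 ± 35.3 FPKM (SD, n = 3) to 6.67. The PA 8-cell embryo held 56.8 FPKM beside 167.6 ± 12.9 at the 1-cell stage. The PPHLN1 call was lost under median-ratio scaling, where the change was -0.69 in IVF and 1.59 in PA. It was also lost when the repeated PA blastomeres were left out of the fit, which alters no IVF level. ZNF644, a zinc finger protein that recruits EHMT1 and EHMT2, fell by 3.79 in IVF (SE 1.16, limma adjusted p = 0.0344) and by 4.13 in PA (SE 1.16, limma adjusted p = 0.0232) from 1-cell to 8-cell. Its level went from 17.8 ± 7.45 to 0.289 FPKM in IVF and from 24.8 ± 3.04 to 0.464 in PA. The ZNF644 call in IVF was lost without any of the 3 IVF 1-cell embryos and without the repeated PA blastomeres, and that in PA without PA 1-cell embryo 2. Both were also lost under median-ratio scaling and with a pseudocount of 5.

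**Figure D5:**
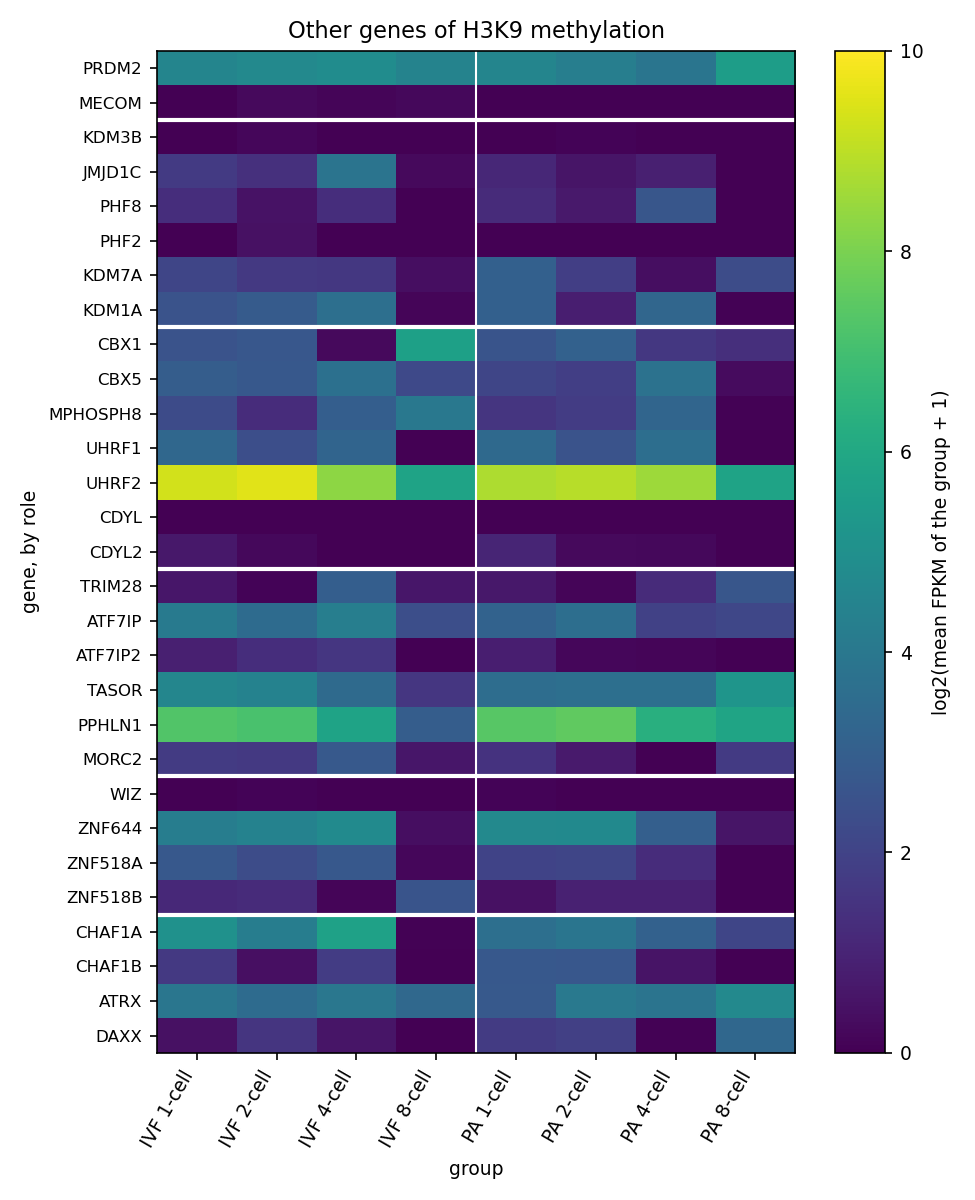
Mean FPKM of each group (columns) for 29 other genes of H3K9 methylation (rows, by role from top: other methyltransferases, other demethylases, readers, SETDB1 partners and HUSH, EHMT partners, chaperones), as log2(FPKM + 1) in colour. UHRF2 and PPHLN1 are the brightest rows and dim at the 8-cell stage in IVF, and CBX1 is brightest in the IVF 8-cell embryo.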

How the data were processed

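Zygotes and separated blastomeres of pig IVF and PA embryos (42 cells, 20 embryos) were sequenced with Ansuper-seq, which reads transcripts with or without polyA tails, as 150 bp paired ends. The authors mapped the reads with Hisat2 (Sscrofa11.1), used StringTie for transcript assembly and HTSeq for counting, and deposited FPKM values. Tool versions, annotation release, strandedness and molecular identifiers are not given in the sources used here. The labels' extraction text describes another kit and oocytes.

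Each embryo's FPKM was the mean of its blastomeres. limma 3.58.1 (R 4.3.3) with a mean-variance trend was fitted to log2(FPKM + 1) of all 8 groups for the 8116 genes with at least 1 FPKM in at least 3 cells. A fold change on this scale understates that of low genes. A gene was called at a Benjamini-Hochberg adjusted p below 0.05 over all genes tested and a fold of at least 2. The study tested counts of blastomeres with DESeq2, which FPKM values do not allow. Labels do not say whether embryos of a group came from separate collections, so p-values measure the spread between these embryos. Whole reads were recovered for 87.4% of expressed genes (tolerance 0.02 reads). They served to give depth and the read numbers of members, and entered no test. Recovered genes leave out 2.38% of nuclear FPKM. The procedure was tested on simulated data, and the outcome is not given here. Plots used Python 3.11.15 and matplotlib 3.10.9.

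The members and gene lists were chosen with earlier results of these data known. Named genes were the members, pathway genes called or highest in their subgroup, and the 3 genes most correlated with each of the 3 most abundant members, of which 1 is not reported here. EHMT1, PRDM16, KDM4D, KDM4E, CBX3 and DPPA3 were not analysed here. Alternatives changed the pseudocount, filter, scaling, replicate unit, trend, block, groups in the fit, the repeated cells (the PA 2-cell ones added after seeing the data) and each embryo in turn.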

Additional observations from a re-analysis of the deposited data

Results flagged for a closer look

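In 28 checks of a gene within a group of 6 or 9 blastomeres, 9 had a highest blastomere set apart from the others by Dixon's criterion. Chance flags about 1 in 20 checks of independent, normally spread values. That rate does not hold here, since sister blastomeres are not independent and 4 of the genes are at or near 0 in most cells, so the values are descriptions. SETDB1 stood at 156.8 FPKM in PA 2-cell-3-1, beside 39.2 to 62.5 in the other 5 blastomeres, and SETDB2 at 7.973 in the same cell, beside 0.7223 at most. KDM4A stood at 1.919 FPKM in PA 2-cell-2-2, beside 0.00469 at most. KDM4C stood at 4.459 FPKM in IVF 4-cell-3-2, beside 0.01703 at most, and at 0.1463 in PA 2-cell-1-1, beside 0.00543 at most. EHMT2 stood apart in 4 groups, at 9.266 FPKM in IVF 4-cell-3-3, at 5.368 in PA 2-cell-1-1, at 0.6343 in IVF 2-cell-3-1 and at 0.007857 in PA 4-cell-1-4, the last being the only PA 4-cell blastomere above 0 for this gene and one of the repeated cells, so that any value above 0 would stand apart there.

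The step of KDM4A from 4-cell to 8-cell differed between IVF and PA by 4.47 on the log2 scale (limma adjusted p = 0.0297, over its 18 alternatives 0.00708 to 0.533). In the PA 8-cell embryo and in PA 4-cell embryo 3 the gene rests on 1 recovered read each. Each side holds 1 8-cell embryo.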

How the results depend on the processing

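Of 247 counts of called members under settings other than leaving out an embryo, 212 kept within 1.5 times the reported count and 35 moved. The number of members called went to 0 from 4-cell to 8-cell in IVF (1 as reported) with a filter of 5 FPKM, the mean of log2 values or only the groups compared. It went to 0 from 4-cell to 8-cell in PA (1 as reported) with a pseudocount of 0.1, no filter, the filter of 5 FPKM, nuclear genes rescaled, the mean of log2 values, blastomeres as samples or only the groups compared, and to 0 in the 8-cell interaction (1 as reported) with a pseudocount of 0.1, the filter of 5 FPKM, nuclear genes rescaled, the mean of log2 values, blastomeres as samples, only the groups compared or no trend. It went from 2 to 1 from 1-cell to 8-cell in IVF with the filter of 5 FPKM, which leaves out KDM4A by construction, and with median-ratio scaling. It went from 0 to 1 with median-ratio scaling from 2-cell to 4-cell and from 1-cell to 4-cell in PA, in both steps over the methods after the 2-cell stage and between IVF and PA at the 4-cell stage, to 2 in the 8-cell interaction and to 3 from 1-cell to 8-cell in PA. It went from 0 to 1 with the mean of log2 values from 1-cell to 4-cell in each method, from 1-cell to 8-cell in PA and from 2-cell to 4-cell over both methods. It went from 0 to 1 without the repeated blastomeres from 1-cell to 4-cell in PA and from 2-cell to 4-cell over both methods, with blastomeres as samples in the latter, and from 1-cell to 8-cell in PA to 1 with a pseudocount of 5 and to 3 with only the groups compared. The cause of these moves was not tested. Of 1653 log2 changes 1 reversed with a call, that of SETDB1 from 2-cell to 4-cell over both methods, to 2.122 under median-ratio scaling.

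Leaving out 1 embryo gave 0 to 1 called members from 2-cell to 4-cell in IVF (1 without IVF 4-cell embryo 1), 1 to 2 from 4-cell to 8-cell in IVF (2 without IVF 4-cell embryo 2), 0 to 1 from 1-cell to 4-cell in IVF (1 without IVF 4-cell embryo 1), 0 from 4-cell to 8-cell in PA, 0 to 1 from 1-cell to 8-cell in PA (1 without PA 1-cell embryo 3), 0 to 1 from 2-cell to 4-cell over both methods (1 without IVF 4-cell embryo 1), 0 to 1 from 4-cell to 8-cell over both methods (1 without IVF 4-cell embryo 2, or PA 4-cell embryo 1), and 1 to 2 in the 8-cell interaction (2 without IVF 4-cell embryo 2). Leaving out the nearly identical PA 2-cell cells, an alternative chosen after seeing the data, changed no member call. Leaving out an embryo was not possible at the 8-cell stage, where each method holds 1 embryo.

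Embryo numbers are shared between groups, but same-numbered embryos deviated together in 1 of 15 pairs of groups, the PA 2-cell and 4-cell groups that hold the repeated cells (correlations over all pairs -0.041 to 0.355), so the numbers were not taken to pair embryos. With the replicate block every member call was kept. SUV39H2 was at -6.17 (limma adjusted p = 0.00946) from 1-cell to 8-cell in IVF and SETDB2 at 3.54 (limma adjusted p = 0.0401) from 4-cell to 8-cell in PA. Over all genes the block gave 85 calls beside 90 from 2-cell to 4-cell in IVF, and 5 beside 8 from 1-cell to 2-cell in PA.

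The number of all genes called also depended on the setting. From 2-cell to 4-cell over both methods it was 336 as reported (145 higher and 191 lower), 190 with no filter, 576 with median-ratio scaling (of which 50 lower), 1183 with the mean of log2 values, 1266 with blastomeres as samples, 27 with only the groups compared and 942 without the repeated blastomeres. From 1-cell to 8-cell in IVF it was 1157 (489 higher and 668 lower), 1615 with median-ratio scaling (1501 higher and 114 lower) and 1263 with a pseudocount of 0.1 (311 higher and 952 lower). The 8-cell interaction had 232 calls, 721 with no filter, 1100 with median-ratio scaling and 50 with the mean of log2 values. SUV39H1 and KDM4B had 275 and 13 reads over 42 cells, too few for a comparison.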
